A study of Mus musculus with 4 samples.

Results

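The dual specificity MAPK phosphatases are the 10 genes Dusp1, Dusp2, Dusp4, Dusp5, Dusp6, Dusp7, Dusp8, Dusp10, Dusp14 and Dusp16, taken by gene symbol from the 23420 genes in the deposited tables. All 10 had enough reads to be tested, among 16077 genes tested. Their RNA was measured in cochlear cultures of postnatal day 1 CD1 mice that carry an Atoh1-GFP reporter, in which a hair cell enhancer drives green fluorescent protein. After a night in culture, organs were left untreated or given 0.5 mM gentamicin, an aminoglycoside antibiotic that kills hair cells, for 3 h, and were then dissociated and sorted by fluorescence. This gave 4 groups of 3 replicates, namely untreated hair cells (GFP positive), gentamicin-treated hair cells, untreated non-hair cells (GFP negative) and gentamicin-treated non-hair cells. All groups came from the same line and stage, were kept at low oxygen in medium with penicillin, and passed through enzymatic dissociation and the sorter. Each replicate pooled cells from many organs. Cells with weak GFP were left out of the hair cell gate, and the non-hair cell group holds every other cell of the dissected tissue.

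MAPK phosphatases remove the phosphate from both the threonine and the tyrosine that switch on a MAP kinase, and so end its signal. The family is known for a division of labour. Dusp1, Dusp2, Dusp4 and Dusp5 are nuclear enzymes whose genes are switched on within minutes by the kinases they shut off, Dusp6 and Dusp7 act in the cytoplasm on the ERK kinases, Dusp8, Dusp10 and Dusp16 act on the stress kinases JNK and p38, and Dusp14 is a small relative without the kinase-binding domain. JNK is the arm best known for its part in aminoglycoside damage to hair cells.

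The starts of 5 of these genes are shown because they belong to the members on which the comparisons turn, Dusp8 and Dusp16 (higher after gentamicin in hair cells), Dusp6 (lower), and Dusp1 and Dusp5 (inducible enzymes that did not pass the test). Dusp4, also called lower in hair cells, could not be shown because the promoter reference has no entry for it. Each line gives 115 bases, from 165 to 51 bases before the transcription start, 5′ to 3′ on the coding strand, as RefSeq gives them on GRCm38.p6, the assembly that mm10 names. Capitals mark matches to the motifs searched. None of the stretches touches an annotated exon, apart from that of Dusp5, which lies in an antisense RNA (AC137853.2). For Dusp8 and Dusp1 the RefSeq start lies inside the GENCODE gene whose coordinates are given below, so their stretches fall within introns of longer GENCODE transcripts.
Dusp8 (chr7:142095335-142095449, minus strand): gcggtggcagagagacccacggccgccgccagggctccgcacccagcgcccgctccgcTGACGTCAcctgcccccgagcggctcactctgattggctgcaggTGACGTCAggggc
Dusp16 (chr6:134792679-134792793, minus strand): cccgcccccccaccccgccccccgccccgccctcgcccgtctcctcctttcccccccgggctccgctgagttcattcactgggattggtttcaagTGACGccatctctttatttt
Dusp6 (chr10:99263066-99263180, plus strand): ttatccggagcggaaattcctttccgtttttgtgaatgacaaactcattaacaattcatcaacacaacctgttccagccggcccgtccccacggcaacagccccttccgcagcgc
Dusp1 (chr17:26508523-26508637, minus strand): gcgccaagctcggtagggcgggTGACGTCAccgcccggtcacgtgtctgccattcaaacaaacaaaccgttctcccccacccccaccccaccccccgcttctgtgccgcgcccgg
Dusp5 (chr19:53528980-53529094, plus strand): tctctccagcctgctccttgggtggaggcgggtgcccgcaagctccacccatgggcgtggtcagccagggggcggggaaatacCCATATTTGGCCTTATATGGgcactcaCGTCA

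The search covered 250 bases before to 50 after the start, on both strands, for 9 of the 10 members (all but Dusp4) and for all 32851 windows of that length in the reference table. The cAMP response element TGACGTCA stood in the windows of Dusp1 (143 to 136 bases before the start) and Dusp8 (at 107 to 100 and again at 63 to 56 bases before it), and 1.79% of all windows hold it. Its core TGACG, which every TGACGTCA also contains on each strand, was found at 5 of the 9 members (Dusp1, Dusp2, Dusp5, Dusp8 and Dusp16) against 20.8% of all windows. The serum response CArG box was found only at Dusp5, in 2 adjoining copies, against 1.63% of windows. The AP-1 letters TGACTCA or TGAGTCA (5.20% of windows) and the ETS letters CCGGAAG (8.86%) were in none of the 9 windows. A match is a description of letters and says nothing about binding.

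Values below are the normalized read numbers that the authors deposited, in which 1 had been added to every gene, so that 1 means no reads. A log2 difference is on the scale of these numbers with the 1 included, which understates the change of genes with low numbers such as Dusp2, Dusp4 and Dusp5. Differences were tested with limma over all 16077 genes, the 4 groups in 1 model, and a gene was counted as changed at a Benjamini-Hochberg adjusted p under 0.05. Recovered reads on genes ran from 22399803 to 28151367 per replicate. The marker genes followed the labels of the sort. All 8 hair cell markers were higher in untreated hair cells than in untreated non-hair cells, with summed levels of 11847–12297 against 276–282, and Atoh1 itself averaged 209 against 1.38. Supporting cell markers were not depleted from the hair cells, with sums of 1521–1811 against 859.8–1462, and 3 of 10 were higher there and 2 lower. As the numbers are scaled within each library and come from pooled cells, fewer cells of a type and less RNA per cell cannot be told apart.

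Before the drug, the family was split between the populations. In untreated hair cells 3 members were higher than in untreated non-hair cells (Dusp14, Dusp10 and Dusp16) and 7 were lower, where 31.9% of all tested genes were called higher and 42.2% lower (74.1% in either direction). The median log2 difference over the members was -1.11, and over all tested genes -0.12. Scaling by TMM moves the all-gene median to -0.02.

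**Figure D1:**
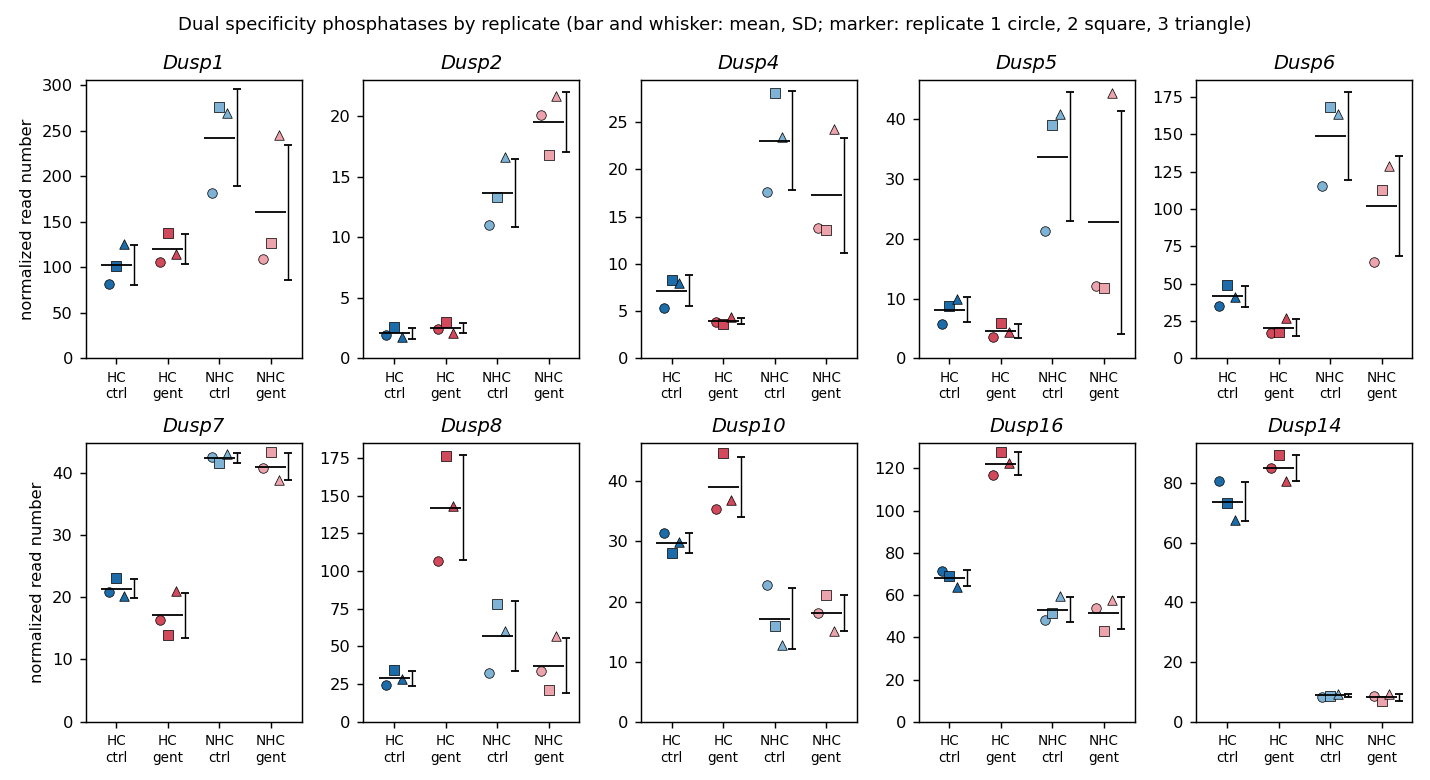
Normalized read number (vertical axis, from 0, scale differs by panel) of each member in untreated (ctrl) and gentamicin-treated (gent) hair cells (HC) and non-hair cells (NHC). Points are replicates, horizontal bars are means and whiskers are SD over 3 replicates; the 3 treated hair cell points stand above the 3 untreated ones for Dusp8, Dusp10, Dusp16 and Dusp14 and below them for Dusp4 and Dusp6.

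The small phosphatase Dusp14 was the member most tilted to hair cells. Its normalized read numbers were 80.6, 73.1 and 67.5 in untreated hair cells and 8.32, 8.76 and 9.30 in untreated non-hair cells, with no overlap. That is 8.37-fold higher, or 3.07 ± 0.11 (SE) on the log2 scale (limma adjusted p = 7.14e-10). Dusp10, which acts on JNK and p38, gave 31.4, 28.1 and 29.9 in hair cells against 22.8, 15.9 and 12.8 in non-hair cells (log2 difference 0.84 ± 0.19 SE, limma adjusted p = 0.00200). Dusp16 gave 71.3, 69.2 and 63.8 against 48.4, 51.4 and 59.6, a smaller tilt of 0.36 ± 0.11 (SE) on the log2 scale (limma adjusted p = 0.0106). The groups did not overlap for any of the 3, and 34.5% of all tested genes stood clear of overlap in that direction.

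The 4 inducible nuclear enzymes and the ERK-directed pair were all lower in hair cells. Dusp2, a phosphatase of immune and growth signalling, was nearly without reads there, at 1.91, 2.58 and 1.74 against 11, 13.4 and 16.6 in non-hair cells (limma log2 difference -2.72, adjusted p = 2.40e-07). Its 3 untreated hair cell replicates held 74 recovered reads in all. Dusp5, the nuclear ERK phosphatase, was at 5.78, 8.70 and 9.94 against 21.3, 39.1 and 40.8 (log2 difference -2.03, limma adjusted p = 0.00200). Dusp4, another nuclear enzyme, was at 5.30, 8.27 and 7.96 against 17.7, 28.1 and 23.4 (log2 difference -1.69, limma adjusted p = 8.91e-05). For each of these genes every hair cell replicate lay under every non-hair cell replicate, as it did for 44.6% of all tested genes.

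Dusp1, the founding member and a general stress-induced phosphatase, was at 81.3, 102 and 125 in untreated hair cells and 181, 275 and 270 in untreated non-hair cells. Its log2 difference was -1.23 ± 0.28 (SE, limma adjusted p = 0.00178). Dusp6, whose level is widely read as a gauge of ERK activity, was at 35.0, 49.1 and 41.0 against 115, 168 and 163 (log2 difference -1.83 ± 0.27 SE, limma adjusted p = 6.53e-05). Dusp7, its close relative, was at 20.8, 23.1 and 20.2 against 42.5, 41.5 and 43.0, which is 1.98-fold lower in hair cells (limma adjusted p = 2.41e-05). Neither pair of groups overlapped. Dusp8 was the exception among the 7, because its non-hair cell replicates (32.2, 78.3 and 60.1) reached down into the range of the hair cells (24.3, 34.1 and 28.1). Its call as lower (log2 difference -0.90, limma adjusted p = 0.0457) was lost in 13 of 22 alternatives.

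Levels of different members can be set side by side only per length of transcript. In untreated hair cells the order, in normalized reads per kilobase of the longest coding transcript, was Dusp1 (51.1 ± 11.01 SD, n = 3), Dusp14 (46.3 ± 4.19), Dusp6 (14.6 ± 2.52), Dusp16 (13.1 ± 0.765), Dusp10 (10.3 ± 0.589), Dusp7 (6.34 ± 0.477), Dusp8 (5.79 ± 1.03), Dusp5 (2.89 ± 0.864), Dusp4 (2.25 ± 0.596) and Dusp2 (0.666 ± 0.276). Dusp1 and Dusp14 differ by less than the larger of their SDs but by more than the smaller. The same holds for Dusp6 and Dusp16, Dusp7 and Dusp8, and Dusp5 and Dusp4. With the mean length over transcripts, Dusp16 (16.2) passes Dusp6 (15.8). After gentamicin Dusp8 moved up to follow Dusp14 in hair cells, at 29.4 ± 7.27 (SD, n = 3) reads per kilobase, and Dusp6 came after Dusp10 at 6.97 ± 2.08. Dusp16 then stood at 23.8 ± 1.08, and with the mean length over transcripts it was level with Dusp8 (29.3 against 29.4). In untreated non-hair cells Dusp1 (121 ± 26.6) and Dusp6 (52.9 ± 10.5) led, and Dusp14 came last at 4.96 ± 0.314.

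Gentamicin changed 4 of the 10 members in hair cells. Of these, 2 stress kinase phosphatases rose (Dusp8 and Dusp16), and an ERK-directed and an inducible nuclear enzyme fell (Dusp6 and Dusp4). Over all tested genes 33.2% were called, 14.8% as higher and 18.4% as lower, so 2 of 10 in each direction lies near the share of all genes. The median log2 difference over the members was 0.22, and over all tested genes -0.09. Under scaling by total reads, the called genes of the whole table shift from 44.5% to 61.9% higher, but the same number of members was called in each direction.

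Dusp8 moved the most. This gene (chr7:142079490-142095843, minus strand, 7 exons) encodes a phosphatase of JNK and p38. Untreated hair cells gave 24.3, 34.1 and 28.1, and gentamicin-treated hair cells gave 107, 177 and 143. The lowest treated replicate was far above the highest untreated one. The rise was 4.88-fold, or 2.29 ± 0.37 (SE) on the log2 scale with a 95% interval of 1.47 to 3.10 (limma adjusted p = 0.00107). An exact permutation test of 3 against 3 replicates cannot give less than p = 0.1, which is what Dusp8 reached. It was called in all 22 alternatives, with log2 differences from 2.11 to 2.51.

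Dusp16 (chr6:134715468-134792625, minus strand), the JNK phosphatase also known as MKP-7, rose by less but with tighter replicates. Its numbers were 71.3, 69.2 and 63.8 before and 117, 128 and 122.5 after gentamicin, with a wide gap between the groups. The rise was 1.80-fold, 0.85 ± 0.11 (SE) on the log2 scale (limma adjusted p = 2.95e-04), and it too was called in all 22 alternatives (0.80 to 0.94). The remaining stress kinase phosphatase, Dusp10 (MKP-5), stood at 31.4, 28.1 and 29.9 before and 35.4, 44.7 and 37.0 after. These replicates did not overlap, yet the log2 difference of 0.39 ± 0.19 (SE) did not pass over all genes (limma adjusted p = 0.145), and passed only when the 4 groups were not fitted together (0.0218).

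Dusp6 (chr10:99263231-99267489, plus strand) fell. Its numbers were 35.0, 49.1 and 41.0 in untreated and 16.8, 17.4 and 27.2 in treated hair cells, so that the highest treated replicate stayed under the lowest untreated one. The fall was 2.07-fold, with a log2 difference of -1.05 ± 0.27 (SE, limma adjusted p = 0.0120). Without untreated replicate 2 the adjusted p was 0.0520. Dusp7, the other ERK-directed enzyme, gave 20.8, 23.1 and 20.2 before and 16.4, 13.9 and 21.0 after, with overlapping replicates (log2 difference -0.34 ± 0.13 SE, limma adjusted p = 0.0607). Dropping treated replicate 3, the one that overlaps, enlarges the fall by construction, to -0.50 (limma adjusted p = 0.00483). In the other 21 alternatives Dusp7 was not called, with a difference as small as -0.20 and a limma adjusted p of up to 0.225.

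**Figure D2:**
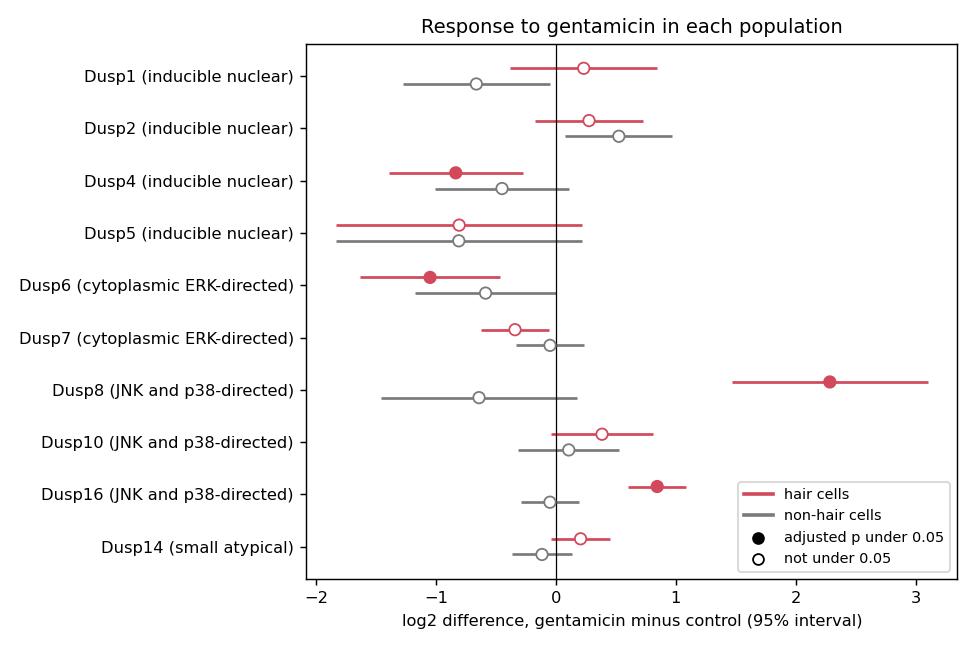
Log2 difference between gentamicin and control (horizontal axis) for each member in hair cells (red) and non-hair cells (grey), with 95% intervals from the limma fit on 3 replicates a group; filled points have an adjusted p under 0.05. Dusp8 (2.29) and Dusp16 (0.85) lie to the right and Dusp6 (-1.05) and Dusp4 (-0.83) to the left in hair cells, and no grey point is filled.

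Among the inducible nuclear enzymes, Dusp4 (chr8:34807297-34819894, plus strand) passed the test. It fell from 5.30, 8.27 and 7.96 to 3.84, 3.68 and 4.35, a log2 difference of -0.83 ± 0.26 (SE, limma adjusted p = 0.0277). The call was lost in 6 of 22 alternatives, where the adjusted p reached 0.103. Dusp5 gave 5.78, 8.70 and 9.94 before and 3.56, 5.90 and 4.46 after, with overlap between the groups (log2 difference -0.81 ± 0.47 SE, limma adjusted p = 0.207), and it passed in 2 alternatives, when hair cells were fitted alone (0.0373) and when treated non-hair cell replicate 3 was left out (0.0487). Dusp2 stayed close to the floor at 2.44, 2.97 and 2.10 after gentamicin (limma adjusted p = 0.322).

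Dusp1 (chr17:26505590-26562128, minus strand), the member with the most reads per kilobase, was not changed detectably. Its treated numbers of 106, 138 and 115 lay among and just above the untreated 81.3, 102 and 125. The log2 difference was 0.23 with a 95% interval of -0.38 to 0.85 (limma adjusted p = 0.557), which leaves room for changes of moderate size either way. Dusp14, high in hair cells, gave 80.6, 73.1 and 67.5 before and 84.98, 89.2 and 80.7 after. Its replicates just failed to overlap, and its log2 difference of 0.21 did not pass (limma adjusted p = 0.182). Replicates did not overlap for 4 members on the higher side (Dusp8, Dusp10, Dusp16 and Dusp14) and 2 on the lower (Dusp4 and Dusp6), beside 21.7% and 33.1% of all tested genes.

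Markers of other cell types moved in hair cells as well, where 14.8% of all tested genes were called higher and 18.4% lower. Of the mesenchyme markers 3 of 7 were lower in treated than untreated hair cells (summed level, with the added 1 taken off, 169–213 against 247–530), of the endothelium markers 2 of 6 (7.71–13.6 against 14.1–26.1), of the Schwann cell and glia markers 2 of 5 (75.02–109 against 117–148), of the melanocyte markers 1 of the 3 tested (6.55–7.79 against 9.30–12.3) and of the supporting cell markers 3 of 10 (752–1225 against 1521–1811). The macrophage sum went the other way (15.4–21.7 against 4.70–5.82), led by Cd68 alone, a lysosomal protein gene, at 14.1 against 2.43, while Csf1r and Aif1 averaged under 1.46 in both. The neuron markers (978–1121 against 1037–1226) and the hair cell markers (9939–11092 against 11847–12297) had no called member, nor did the erythroid markers (0.412–13.9 against 0.599–2.14). Some mesenchyme genes were well above the floor, with Col3a1 at 45.9 in treated and 124 in untreated hair cells and Lum at 54.0 and 64.2. Others were low, with Pou3f4 at 3.29 and 5.45 and Tbx18 at 4.47 and 9.98.

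Read from 25 of the markers of mesenchyme, endothelium, macrophages, glia and melanocytes, untreated hair cell replicates carried 9.05%, 13.1% and 7.80% of the level in non-hair cells and treated ones 4.16%, 5.15% and 6.38%. Each figure is a median over markers that differed widely, so it is a rough measure. Mean numbers in untreated hair cells and non-hair cells were 9.98 and 335 for Tbx18, 60.1 and 115 for Erbb3, and 6.59 and 7.10 for Tyr. In treated cells Cd68 averaged 14.1 in hair cells and 8.59 in non-hair cells. When each replicate's median share of the non-hair cell profile was taken off, a choice made after seeing the data, Dusp8 and Dusp16 kept their rise (log2 2.51 and 0.85). Dusp6 kept its fall (-0.93, limma adjusted p = 0.0296). Dusp4 did not (-0.70, limma adjusted p = 0.0880). Dusp2 was left with no reads in 3 of 3 untreated replicates, so its untreated hair cell level lay within what that median share of non-hair cell RNA would give. Treated replicates 1 and 2 kept 1.70 and 2.07, and treated replicate 3 was left with no reads. The share uses no supporting cell marker, and the part of supporting cells in the falls was not tested.

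In non-hair cells 0 of 10 members were called by limma after gentamicin, where 0.342% of all tested genes were. Higher calls made up 69.1% of those over all genes, and 82.5% with scaling by total reads. Unadjusted limma p-values under 0.05 were reached by Dusp1 (0.0363) and Dusp2 (0.0251), but the share of all tested genes under that threshold was not counted. Over all genes their limma adjusted p-values were 0.260 and 0.226. The study's criteria of an unadjusted p under 0.01 and a fold above 1.2 were met by 0 of 10 (5.44% of all tested genes). Dusp2 was the 1 member whose replicates did not overlap, at 11, 13.4 and 16.6 before and 20.05, 16.8 and 21.7 after, beside 10.1% of all tested genes on the higher side. The log2 difference of Dusp2 was 0.53 ± 0.20 (SE, limma adjusted p = 0.226).

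Several members spread widely among the non-hair cell replicates. Dusp1 gave 181, 275 and 270 untreated and 109, 126 and 246 treated. Dusp6 gave 115, 168 and 163 untreated and 64.6, 113 and 129 treated, and Dusp5 gave 21.3, 39.1 and 40.8 untreated and 12.01, 11.8 and 44.3 treated. Treated replicate 3 was the highest of its group for 8 of 10 members, and untreated replicate 1 the lowest of its group for 8 of 10. Dusp4 (17.7, 28.1 and 23.4 against 13.8, 13.6 and 24.3) had the same shape. The share of all tested genes with these ranks was not counted. Over all tested genes, however, the deviations of untreated replicate 1 and treated replicate 3 from their group means had a correlation of -0.749. The opposite shifts of these replicates were thus not particular to the members. Dusp8 gave 32.2, 78.3 and 60.1 untreated and 33.4, 21.0 and 57.1 treated, with log2 difference -0.64 ± 0.37 (SE, limma adjusted p = 0.403). Dusp7 (42.5, 41.5 and 43.0 against 40.8, 43.3 and 38.9), Dusp14 (8.32, 8.76 and 9.30 against 8.46, 6.89 and 9.15), Dusp16 (48.4, 51.4 and 59.6 against 54.0, 43.1 and 57.5) and Dusp10 (22.8, 15.9 and 12.8 against 18.1, 21.1 and 15.1) had log2 differences between -0.11 and 0.11.

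Whether a response differed between the populations was tested with the interaction contrast. It was called for 2 of 10 members, both as higher in hair cells, where 13.4% of all tested genes were called (6.85% in that direction). Over all genes 51.1% of the interaction calls were higher, and 67.7% with scaling by total reads. For Dusp8 the response in hair cells exceeded that in non-hair cells by 2.93 ± 0.53 (SE) on the log2 scale (limma adjusted p = 0.00671), and for Dusp16 by 0.89 ± 0.16 (SE, limma adjusted p = 0.00574). For the ERK-directed Dusp6 the responses were -1.05 and -0.59, and their difference of -0.46 had a 95% interval of -1.29 to 0.37 (limma adjusted p = 0.439), so a fall in hair cells alone was not shown. Dusp4 was alike, with a difference of -0.39 and an interval of -1.18 to 0.41 (limma adjusted p = 0.507). The contrast for Dusp1 was 0.90 (limma adjusted p = 0.152), and it passed only without treated non-hair cell replicate 3 (1.25, adjusted p = 0.0191).

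The other genes of the MAPK pathways give the setting of these changes. Their counts in hair cells stand beside 14.8% of all tested genes called higher and 18.4% called lower. In the list of JNK cascade kinases and scaffolds, 2 of 17 tested genes rose in gentamicin-treated hair cells and 6 fell. The risers were Mapk8, which encodes JNK1, from 42.4 ± 1.61 to 58.9 ± 2.44 (SD, n = 3; log2 difference 0.47, limma adjusted p = 6.40e-04), and the stress-activated kinase Map3k5, also called ASK1, from 7.93 ± 0.326 to 10.8 ± 0.317 (0.45, limma adjusted p = 0.00927). The upstream kinases Map3k4 (-0.67), Map3k1 (-0.53) and Map3k10 (-0.45) fell. Scaling by total reads turns the JNK count to 4 higher and 2 lower, without Map3k1 (adjusted p = 0.0554). In the p38 list 1 of 9 rose, the downstream kinase Mapkapk5 (0.21, limma adjusted p = 0.0405), and 0 fell.

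In the list of the ERK cascade 3 of 14 rose and 4 fell, beside 14.8% and 18.4% of all tested genes. Sos1 (0.38) and Braf (0.31) were among the higher ones, and Map2k1 (-0.58), which encodes MEK1, Nras (-0.51) and Mapk3 (-0.31), which encodes ERK1, were lower. Scaling by total reads gives 5 higher and 2 lower, without Map2k1 (adjusted p = 0.0501). Among genes that ERK signalling induces or that feed back on it, 2 of 16 rose and 5 fell. Ier3, an early stress gene, went from 23.2 ± 4.66 to 8.73 ± 1.996 (SD, n = 3; log2 difference -1.41, limma adjusted p = 3.83e-04), the feedback inhibitor Spry4 from 7.10 ± 2.13 to 3.05 ± 0.295 (-1.19, adjusted p = 0.00214), and the ETS factor Etv4 fell by 0.97. With the non-hair cell share taken off, Ier3 turned to 0.27 (limma adjusted p = 0.797) and Spry4 stood at exactly 0. The subtraction stops at no reads, so these genes, whose untreated hair cell level is close to the share taken off, give no usable difference. The inhibitor Spred1 (0.42) and the ETS factor Etv5 (0.28) rose. In non-hair cells 0 genes of any of these lists were called by limma, and under the study's criteria 4 of the 16 ERK target genes, 2 of the 17 JNK genes and 1 of the 11 immediate early genes were lower, beside 2.26% of all tested genes.

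Of the immediate early genes, which enzymatic dissociation can also raise, 1 of 11 rose in hair cells and 5 fell. Over all tested genes 14.8% rose and 18.4% fell. The riser was Jun, the transcription factor that JNK phosphorylates, from 368 ± 50.7 to 1009 ± 183 (SD, n = 3; log2 difference 1.45, limma adjusted p = 0.00536). Fosb (-1.38), Zfp36 (-1.18) and Fos (-1.15) fell. Egr1 stands in this list and in that of the ERK targets. With the non-hair cell share taken off, 0 genes of either list were called lower, though the log2 differences of Fosb (-1.15), Fos (-0.84), Zfp36 (-0.74) and Etv4 (-0.66) stayed below 0. For Ier3 and Spry4 the floor at no reads meant that a fall could not be tested. The rises of Jun, Spred1 and Etv5 remained called. Leaving out 1 replicate at a time moved the count of immediate early genes that fell between 2 and 7 and that of ERK targets between 2 and 6.

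Of 22 other phosphatases of the wider family that were tested, 2 rose and 2 fell in hair cells, against 14.8% and 18.4% of all tested genes. Dusp12, an atypical phosphatase, went from 9.35 ± 1.37 to 16.3 ± 0.310 (SD, n = 3; log2 difference 0.81, limma adjusted p = 0.00117), and Ppm1d, a stress-induced phosphatase of the p53 pathway, rose by 0.41 on the log2 scale (limma adjusted p = 0.0185). Ppm1l (-0.67) and Dusp18 (-0.30) fell, and Dusp18 was not called under scaling by total reads (adjusted p = 0.153) or by median-ratio (0.0507). Medians over the lists were -0.05 for the ERK cascade, -0.22 for the JNK cascade, -0.20 for p38, -0.15 for ERK targets, -0.72 for immediate early genes and -0.10 for the other phosphatases, beside -0.09 for all tested genes.

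**Figure D3:**
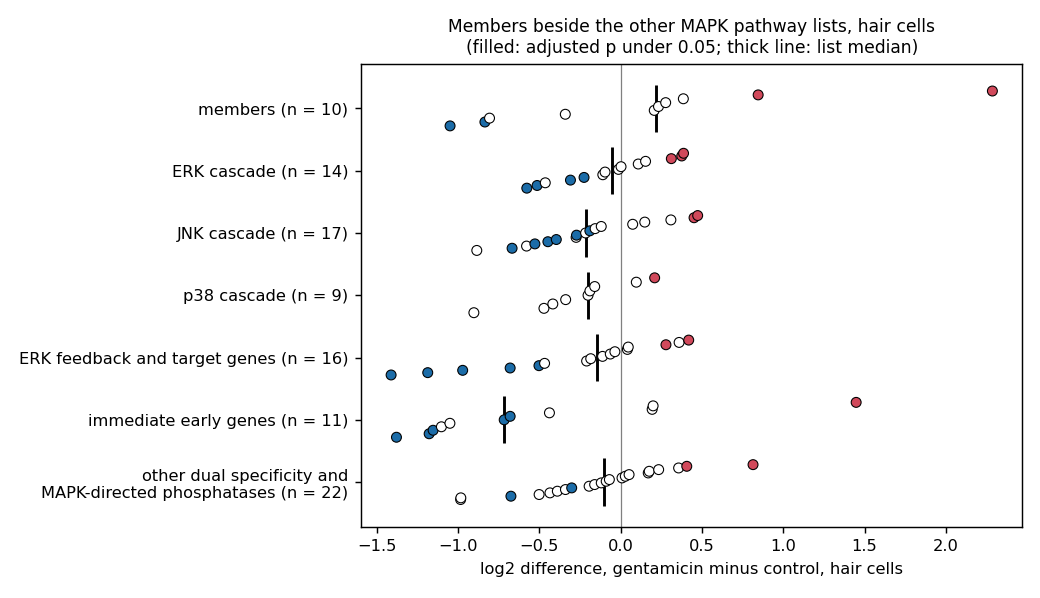
Log2 difference between gentamicin and control in hair cells (horizontal axis) for the members and for each list of other MAPK pathway genes (rows, n tested genes each); every point is 1 gene from the limma fit, red and blue points have an adjusted p under 0.05, and the thick line is the list median. Dusp8 (2.29) and Jun (1.45) lie furthest to the right, and the immediate early genes have the lowest median (-0.72).

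The 4 member calls in hair cells differed in how far they rested on single choices. Dusp8 and Dusp16 were called under every setting run, Dusp6 in 21 of 22 and Dusp4 in 16 of 22. These settings include the omission of each non-hair cell replicate, which leaves the hair cell difference unchanged. Dusp4 lost its call without untreated hair cell replicate 2 or 3 and without treated hair cell replicate 1 or 2. It was also lost with voom weights and with non-hair cell RNA subtracted. The spans of some members overlap genes on the other strand. Reads from any shared exon could not be told apart, because no strand-specific step is named in the sources used here. The overlaps were taken over whole genes, and shared exons were not examined. Dusp1 shares ground with Ergic1, Dusp10 with 1700056E22Rik, Dusp5 and Dusp16 with antisense RNAs (AC137853.2 and Gm36328), and Dusp8 with the divergent RNA Gm32786.

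**Figure D4:**
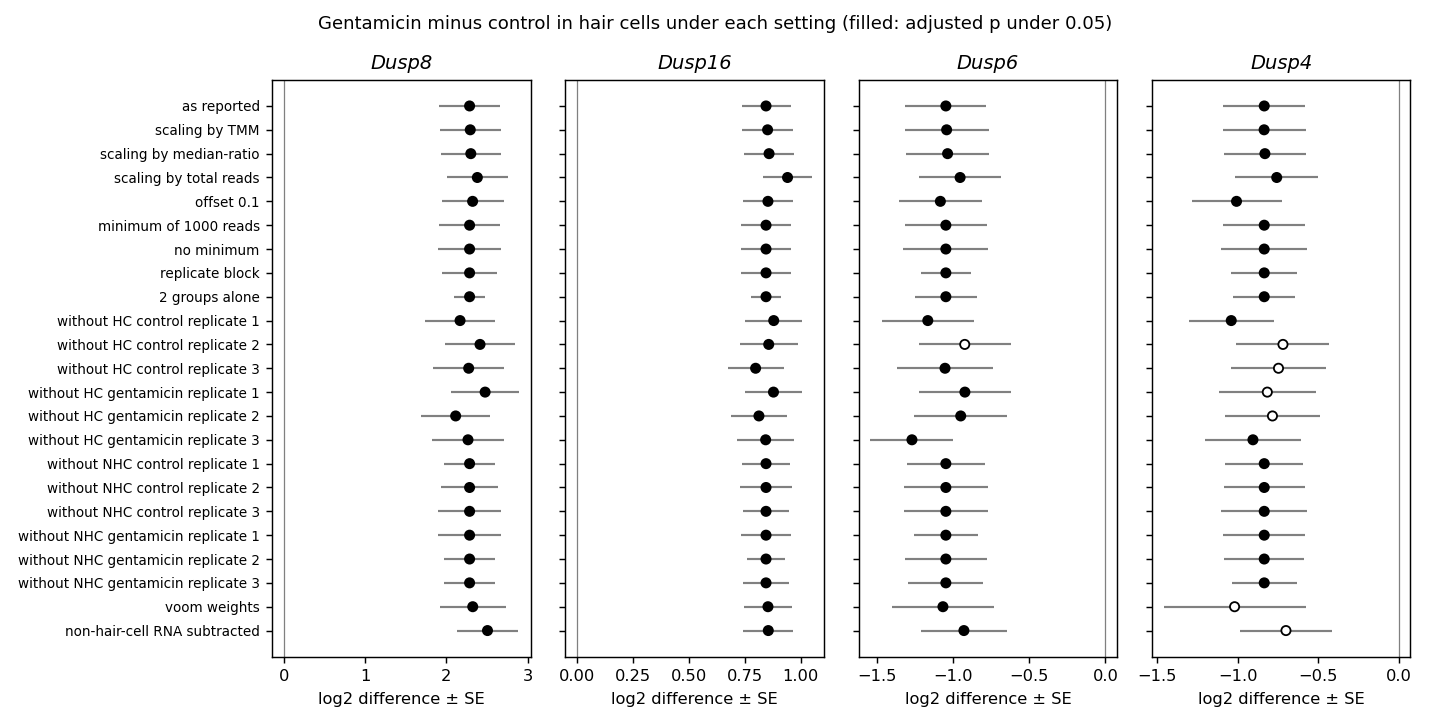
Log2 difference between gentamicin and control in hair cells (horizontal axes, ± SE) for the 4 called members under the reported fit and 22 alternatives (rows); filled points have an adjusted p under 0.05. Dusp8 and Dusp16 are filled in every row, Dusp6 is open in 1 and Dusp4 in 6.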

How the data were processed

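RNA from sorted hair cells and non-hair cells was sequenced as 50 base single-end reads in 3 biological replicates of each of 4 groups, given as columns of 1 deposited table a group. The authors trimmed reads at a quality score of 25, aligned them to mm10 with TopHat2 (per the labels) and deposited 1 score per gene and replicate, a read number normalized within the replicate. Their methods name a division by gene length that the score does not show, and its scaling factor is not given in the sources used here. The upper quartile of the scores, over genes with reads, was nearly equal in all replicates (51.8–52.1), as a scaling to that quartile would give. The scores of a replicate rise in steps of 0.0351–0.0461, taken as the worth of 1 read, but only 83.3–84.5% of low values were whole numbers of reads within 0.1 read, so no count test was run. Depth was the sum of these recovered reads, 22399803–28151367 per replicate, and genes with fewer than 100 over the 12 replicates were left out. Libraries ran 6 to a lane, and which replicates shared a lane is not given in the sources used here.

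Log2 values of these scores went into limma 3.58.1 (empirical Bayes with trend) in R 4.3.3, which was first tested on simulated data. All p-values are two-sided. Permutation tests used scipy 1.17.1 in Python 3.11.15. Each member is named, with at most 3 genes a direction from each list that have the largest called difference in hair cells. A gene among these is left out of the text. Members and lists were chosen with earlier results of these data known. Hair cell and non-hair cell replicates of the same number deviated together in the untreated groups (correlations of deviations 0.200 to 0.316), but not throughout in the treated groups (-0.039 to 0.377). Treated and untreated replicates of the same number did not consistently deviate together (0.0369 to 0.0523 in hair cells, -0.232 to 0.683 in non-hair cells). Gene positions and transcript lengths came from GENCODE M21 (GRCm38), promoters from RefSeq. Alternatives were the scalings TMM, median-ratio and total reads, 0.1 in place of 1 as the offset, a filter at 1000 reads or none, the replicate block, 2 groups alone, voom weights, each replicate left out, the study's criteria, and, added after seeing the data, subtraction of non-hair cell RNA. The search for a phosphatase signature in protein sequences was not run.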

Additional observations from a re-analysis of the deposited data

Results flagged for a closer look

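The responses of 2 members to gentamicin differed between the populations by a test of the difference itself. For Dusp8 the log2 response in hair cells minus that in non-hair cells was 2.93 (95% interval 1.77 to 4.08), with 3 of 3 treated hair cell replicates above all untreated ones and overlapping groups in non-hair cells. For Dusp16 it was 0.89 (0.55 to 1.23), again with 3 of 3 treated hair cell replicates above the untreated ones. Both were called by limma in 21 of 21 alternatives (Dusp8 from 2.57 to 3.30, Dusp16 from 0.77 to 0.98).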

How the results depend on the processing

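The 2 calls of rising members in hair cells, the 0 calls in non-hair cells and the 2 higher calls of the interaction kept their side of the threshold in the alternatives run, apart from a leave-one-out interaction count of up to 3. The 2 falling members of hair cells became 1 with voom weights and 1 with non-hair cell RNA subtracted, and ranged from 0 to 3 when replicates were left out (0 without untreated replicate 2). The interaction had 0 to 1 lower calls when replicates were left out, Dusp7 being the 1. When the 2 groups compared were fitted alone, Dusp10 and Dusp5 joined the calls in hair cells, which made 3 in each direction. Lower calls in untreated hair cells ran from 6 to 7, Dusp8 being the one lost.

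Differences near 0 changed sign. In non-hair cells, leaving out a replicate gave -0.083 to 0.33 for Dusp10, -0.13 to 0.074 for Dusp16 and -0.20 to 0.0023 for Dusp14. The interaction for Dusp5 was 0.0030, and -0.0013 with TMM, -0.10 with an offset of 0.1, -0.13 with voom weights and -0.32 to 0.63 with replicates left out. The interaction for Dusp2 was 0.080 after subtraction, which left its untreated hair cell replicates with no reads. The cause was not tested.

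With the replicate block, Dusp8 (2.29, limma adjusted p = 0.00130), Dusp16 (7.77e-04), Dusp6 (0.00179) and Dusp4 (0.0126) stayed called in hair cells, and the block changed no member call in any comparison. It moved the calls in non-hair cells over all genes from 55 to 11. With 3 replicates a group, no exact test could go below p = 0.1. Dusp2, with 74 recovered reads in untreated hair cells, is the member with the fewest reads.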

Other observations

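By Pearson correlation of log2 numbers over the 12 replicates, which mostly reflects the gap between hair cells and non-hair cells, the genes most like Dusp6 were Fos (0.990), Fbxl19 (0.989) and Zfp36 (0.987), and those most like Dusp1 were Pip5kl1 (0.944), Akap5 (0.930) and Rab39b (0.928). Over the 6 hair cell replicates they were Cbr2, Ddhd1 and Ccdc85b for Dusp6 (0.997 to 0.998) and Fam98b, Srp54b and Plat for Dusp1 (0.966 to 0.981). Both come from a search over all 16077 tested genes that share libraries, and they are given as a description.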
